A study of Mus musculus with 2 samples.

Results

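Complement genes were followed through islet cell types in single-cell RNA sequencing libraries of pancreatic islets, with the first component gene C1qa in beta cells at the centre. The members were 8 of the 31053 genes in the deposited matrices, taken by symbol: C1qa, C1qb, C1qc, C3, C4b, Cfb, Cd59a and Serping1. All 8 were detected. They were chosen because earlier results on these data had shown C1qa to be higher in multipara beta cells, so the C1qa values below are a description of the gene that was picked and not evidence for the pick.

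The 2 libraries came from wild type C57BL/6J female mice. The virgin library was made from mice that had not been mated, and the multipara library from littermates that entered the study at 9 weeks of age, gave birth 3 times in a row and were used 3 weeks after the last delivery. Their freshly isolated islets were kept briefly in medium with serum, taken apart with trypsin and captured in droplets, where every RNA molecule that is read carries its own short tag (a unique molecular identifier, UMI). Each group is a single library and the number of mice in it is not given in the labels, so no difference below has a replicate check, no test between groups was possible, and every interval is a 95% interval for counting error only.

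The complement system is a chain of plasma proteins that marks cells and debris for removal. C1q, built from the products of C1qa, C1qb and C1qc, binds to the target and starts the classical pathway. C4 and then C3 are split and attach to the surface, factor B (Cfb) drives the alternative amplification loop, and host cells are protected by regulators such as the C1 inhibitor (Serping1) and CD59 (Cd59a), which blocks the final pore. Most circulating complement is made in the liver, while C1q is known chiefly as a product of macrophages, which build it from all 3 chains.

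The 3 C1q genes lie side by side on the minus strand of mouse chromosome 4 (GRCm38, GENCODE M21). C1qb (ENSMUSG00000036905) spans 136880129 to 136886187, C1qc (ENSMUSG00000036896) 136889804 to 136893065 and C1qa (ENSMUSG00000036887) 136895917 to 136898803, all protein-coding, with 3616 and 2851 bases between neighbours and no annotated gene over them. C3 (ENSMUSG00000024164) lies on chromosome 17 at 57203970 to 57228136, C4b (ENSMUSG00000073418) at 34728380 to 34743882 and Cfb (ENSMUSG00000090231) at 34856374 to 34862518, all on the minus strand. On chromosome 2, Serping1 (ENSMUSG00000023224) is on the minus strand at 84765387 to 84775444 and Cd59a (ENSMUSG00000032679) on the plus strand at 104095801 to 104115354. Droplet reads come from the ends of transcripts, so the last 500 bases of each member's transcripts were compared with all other genes in stretches of 31 bases. None was shared for C1qa, C1qb, C1qc, C3 or Serping1. For Cfb 76.5% were shared with Gm20547, which overlaps it on the same strand from 34856412 to 34882042 and has its own row in the matrices, and for C4b 38.0% were shared with its near-copy C4a, so counts of Cfb and C4b are uncertain. For Cd59a 4.44% were shared, with a repeat found in many genes.

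The sequence before the start of C1qb and C1qc, which moved together across the cell types, is shown from the RefSeq promoter table (GRCm38.p6, minus strand), where 4 of the 8 members had an entry. The C1qb window is chr4:136886201-136886450, the 250 bases before the RefSeq start, and the C1qc window is chr4:136893066-136893164, the 99 bases of its entry that lie outside the annotated gene. Both are written 5′ to 3′, with each match to the core of the myeloid factor PU.1 (GAGGAA, on either strand) in capitals.
C1qb: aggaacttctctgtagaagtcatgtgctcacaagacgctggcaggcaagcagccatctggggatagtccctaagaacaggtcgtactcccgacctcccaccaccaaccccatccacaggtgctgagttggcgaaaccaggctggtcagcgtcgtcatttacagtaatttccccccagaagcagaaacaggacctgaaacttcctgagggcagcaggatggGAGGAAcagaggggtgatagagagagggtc
C1qc: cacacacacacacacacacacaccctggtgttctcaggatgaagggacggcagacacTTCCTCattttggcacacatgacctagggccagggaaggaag
Each window held 1 match, on the forward strand in C1qb and on the reverse strand in C1qc. Of 32851 promoter windows, 23.3% held the motif in their first 250 bases and 9.91% in their first 99, so a match of this kind is common and is a description of the letters.

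Total depth was 94853806 UMIs over 5463 virgin barcodes and 82503776 over 5075 multipara barcodes, 7 of which occurred in both libraries. Filtering and removal of doublets left 4330 virgin cells (median depth 17178.5 UMIs) and 3330 multipara cells (18292.5). Cell types were gated on UMIs, without clustering and without any complement gene. A beta, alpha, delta or PP cell (which makes pancreatic polypeptide) had at least 5% of its UMIs from its own hormone and under 5% from each other hormone, and other types were gated on at least 3 markers. This gave 1842 virgin and 1688 multipara beta-gated cells, 1036 and 632 alpha, 251 and 236 delta, 86 and 86 PP, 252 and 204 endothelial, 60 and 50 pericyte, 53 and 84 macrophage, 127 and 30 T cell, 180 and 25 B cell, and 58 and 6 fibroblast cells. The macrophage gate carried all 9 of its markers in the virgin library and 8 of 9 in the multipara library, where Cd163 had no UMI, and all 6 markers were seen in the fibroblast gate of both. Levels are given as CPM, a gene's share of all UMIs summed over a gate, scaled so that the gate's genes total 1e+06. Hormone UMIs are part of that total. The gate's own hormone took 5.69e+05 and 5.81e+05 CPM in beta (virgin, multipara) and 3.72e+05 and 3.93e+05 in alpha cells. In delta cells it took 1.87e+05 and 2.02e+05, and in PP cells 4.21e+05 and 4.48e+05. Levels without hormone UMIs were not computed, so orders between endocrine types hold for shares of all UMIs.

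C1qa was by far highest in macrophages, but all 4 endocrine types carried it as well. Macrophage-gated cells held 5371 CPM (5133 to 5616) in the virgin and 5169 CPM (4994 to 5348) in the multipara library. As a share of all UMIs, hormones included, delta cells came next in both libraries, with 78.9 CPM (68.6 to 90.4) and 108 CPM (95.6 to 122). The order of the endocrine types below is of the same shares. Alpha cells held 54.9 CPM (51.4 to 58.6) and 61.7 CPM (57.1 to 66.5). Beta cells held 39.1 CPM (37.4 to 40.8) and 73.7 CPM (71.3 to 76.2), so they stood below alpha cells in the virgin library and above them in the multipara library. Without cells holding C1qb or C1qc the multipara intervals of beta (62.7 to 67.4 CPM) and alpha cells (56.6 to 66.1 CPM) overlapped, as they did in thinned cells (66.3 to 79.2 and 58.6 to 77.5 CPM). PP cells were the lowest endocrine type, with 33.0 CPM (25.3 to 42.3) and 26.1 CPM (19.6 to 34.1). In the virgin library the intervals of beta and PP cells overlapped.

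Outside macrophages and endocrine cells, C1qa was close to absent. B cells held 2 virgin UMIs and T cells 1, pericytes 1 and fibroblasts 2, and there was none in these 4 gates of the multipara library. The virgin endothelial gate read 46.2 CPM, but 63 of its 65 UMIs sat in a single cell that also held 104 C1qb and C1qc UMIs, and it fell to 1.44 CPM without that cell. The multipara endothelial gate held 2 UMIs.

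**Figure D1:**
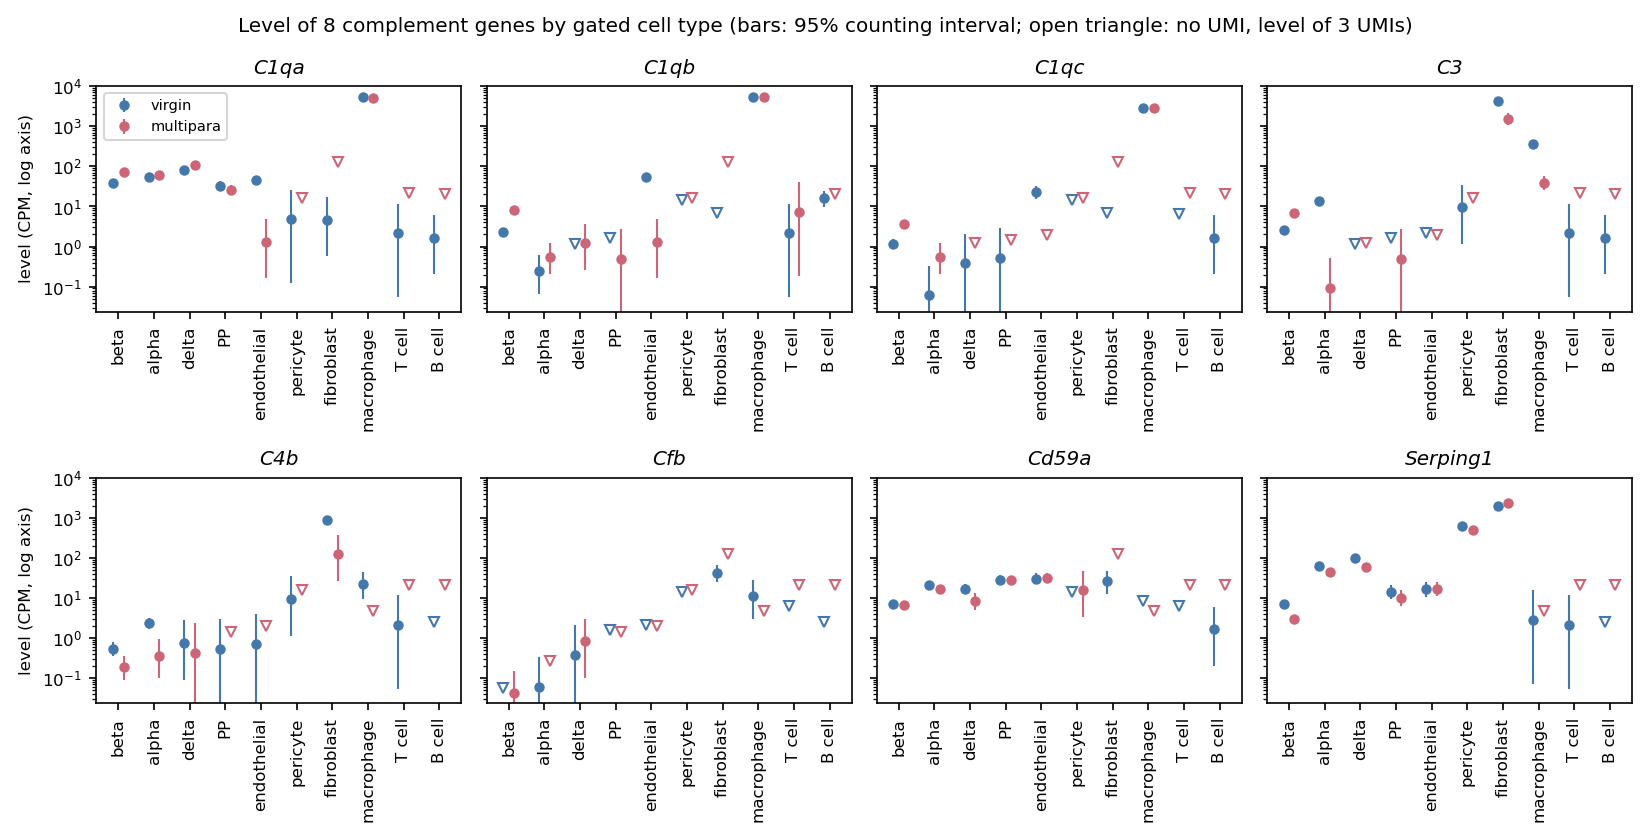
Level of each member in CPM (log axis) in 10 gated cell types of the virgin and multipara libraries, with 95% counting intervals (cut at the lower edge of the axis); an open triangle stands for no UMI and is placed at the level of 3 UMIs. C1qa is seen in macrophages and in all 4 endocrine types, C1qb and C1qc stand at 2782 to 5476 CPM in macrophages and at 8.35 CPM or less in endocrine types, and C3, C4b and Serping1 are highest in fibroblasts, of which the multipara library held 6.

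C1qb and C1qc did not follow C1qa into the endocrine cells. In macrophages the 3 genes came in nearly the same proportion in both libraries, with C1qb at 5343 and 5476 CPM and C1qc at 2932 and 2782 CPM, so that C1qb and C1qc together gave 154 UMIs (145 to 163) per 100 C1qa UMIs in virgin macrophages and 160 (153 to 167) in multipara ones. In alpha cells the same quantity was 0.549 (0.178 to 1.29) and 1.78 (0.917 to 3.14), from 5 and 12 UMIs beside 910 and 673 of C1qa. In delta cells it was 0.481 (0.0121 to 2.71) and 1.16 (0.238 to 3.44), and in PP cells 1.61 and 1.85, each from 1 UMI. The upper limits in alpha and delta cells were thus 1.29 to 3.44, against lower limits of 145 and 153 in macrophages. The part of free macrophage RNA in the endocrine values was not tested beyond this proportion.

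Beta-gated cells read higher, with 8.98 (7.68 to 10.5) C1qb and C1qc UMIs per 100 of C1qa in the virgin library and 16.2 (14.8 to 17.7) in multipara cells. Nearly all of these sat in a few cells. In the virgin library 11 beta-gated cells with at least 3 C1qb and C1qc UMIs held 94.5% of them, and in the multipara library 27 such cells held 92.5%. At the median these cells were small, with depths of 920 and 1206 UMIs against 29804 and 31224.5 in the whole gate. Not all were small in the virgin library. There 55 C1qb and C1qc UMIs sat in cells under 10000 UMIs and 88 in cells of 40000 or more, 86 of them in 1 cell. Macrophage markers, summed over the cells with at least 3 C1qb and C1qc UMIs, stood at 688 and 4052 CPM. These cells held 106 and 392 C1qa UMIs. The other side of the gate looked different. Of the beta-gated cells with C1qa, 868 of 883 virgin cells (98.3%) and 922 of 977 multipara cells (94.4%) had no C1qb or C1qc UMI, and they held 94.3% and 86.3% of the C1qa UMIs. Macrophage markers in them stood at 1.67 and 1.19 CPM, against 1.63 and 2.23 CPM in beta-gated cells with no C1qa.

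**Figure D2:**
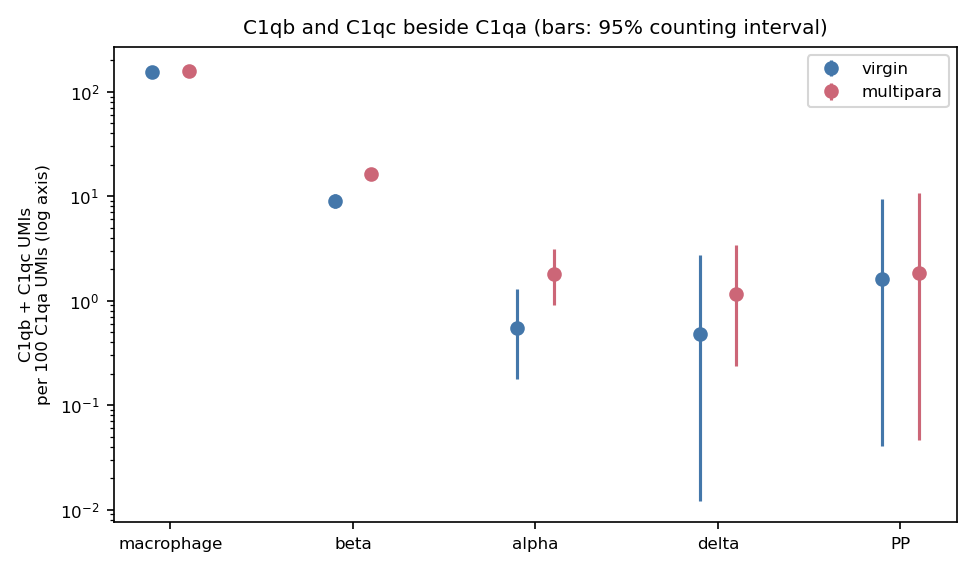
C1qb and C1qc UMIs per 100 C1qa UMIs (log axis) in macrophage, beta, alpha, delta and PP gates of both libraries, with 95% counting intervals. Macrophages sit at 154 and 160, beta-gated cells at 8.98 and 16.2, and alpha, delta and PP cells at 0.481 to 1.85.

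Between the libraries, C1qa in beta-gated cells came to 2037 virgin and 3445 multipara UMIs, a log2 ratio of multipara over virgin of 0.92 (0.84 to 0.997). Without the cells that held any C1qb or C1qc UMI, the 1821 virgin cells left read 37.1 CPM (35.5 to 38.8) and the 1623 multipara cells 65.1 CPM (62.7 to 67.4), and the ratio was 0.81 (0.73 to 0.89). It was 0.77 without beta-gated cells under 10000 UMIs, and it read 1.69 with each cell weighted equally, where the small cells count most. The multipara level was higher in all 11 alternatives run on ratios, 3 of them added after seeing the data. The other endocrine types showed smaller ratios, which moved little when cells with C1qb or C1qc were left out. The C1qa ratio was 0.17 (0.02 to 0.31) in alpha cells and 0.16 without cells holding C1qb or C1qc. It was 0.46 (0.19 to 0.73) in delta cells and 0.47 (0.20 to 0.74) without them, which overlapped the beta interval of 0.73 to 0.89. Under stricter gates the beta and delta ratios lay closer still. In PP cells it was −0.34 (−0.89 to 0.21), an interval that included 0. In macrophages it was −0.06 (−0.14 to 0.03), and it turned to 0.15 under TMM scaling and 0.15 under median-of-ratios scaling, which shifted all macrophage ratios by 0.21.

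The share of beta-gated cells with a C1qa UMI was 47.9% (45.6 to 50.2) in the virgin and 57.9% (55.5 to 60.2) in the multipara library. Without the cell filter the order turned, to 42.3% and 36.1%, while the level stayed higher in the multipara library, at a log2 ratio of 0.85. Thinning every cell to 5000 UMIs gave shares of 255 of 1656 (15.4%, 13.7 to 17.2) and 326 of 1387 (23.5%, 21.3 to 25.8), with 186 and 301 shallower cells left out. Thinned alpha cells stood at 22.7% and 27.3% and thinned delta cells at 29.8% and 36.9%. Thinned PP cells stood at 17.7% and 10.5%. At the same depth 1 of 101 virgin endothelial cells carried it, 0 of 124 multipara ones (the latter allows up to 2.42%) and 0 of 58 virgin B cells (up to 5.17%). Other gates had fewer cells, such as 1 of 43 virgin fibroblasts, 0 of 20 virgin T cells (up to 15%) and 0 of 7 multipara B cells (up to 42.9%). Beta, alpha and delta cells of both libraries lay above the endothelial shares. The PP intervals were wide, 10.0 to 27.9% (virgin) and 4.90 to 18.9% (multipara). The part of free RNA in these shares was not tested.

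Within beta-gated cells C1qa was spread thinly over many cells. In the virgin library 959 cells had no UMI of it, 426 had 1, 210 had 2, 98 had 3, 60 had 4, 77 had 5 to 9 and 12 had 10 or more. In the multipara library the counts were 711, 317, 193, 152, 91, 172 and 52 in the same order, and the highest cell held 56 UMIs in each library. With all UMIs, the variance over the mean was 4.20 and 6.48, against 1.44 and 1.32 in alpha cells. Counting alone gives 1 only for cells of equal depth. These cells varied in depth, so the values with all UMIs do not separate C1qa spread from depth. In thinned virgin cells the variance over the mean was 1.13 in beta and 1.15 in alpha cells, both close to counting alone. In thinned multipara cells it was 7.03 in beta and 1.08 in alpha cells. Of these multipara beta cells, 3 held 10 or more C1qa UMIs and the highest held 43. These distributions include the cells with C1qb or C1qc and were not computed without them. In the multipara gate, 27 cells with at least 3 C1qb and C1qc UMIs held 392 C1qa UMIs before thinning. After thinning, 5 multipara cells held all 81 C1qb UMIs. The 10 highest cells held 8.05% and 9.11% of the C1qa UMIs.

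**Figure D3:**
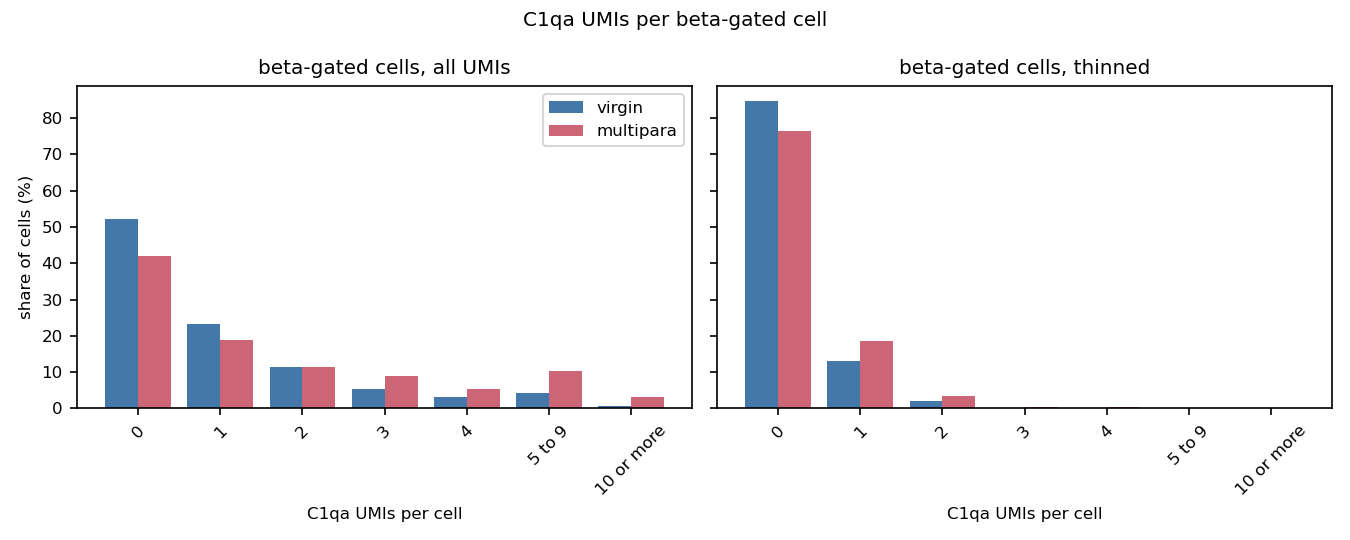
Share of beta-gated cells (%) by their number of C1qa UMIs, with all UMIs (left) and after thinning each cell to 5000 UMIs (right), for the virgin and multipara libraries. With all UMIs, 52.1% of virgin and 42.1% of multipara cells have none, and after thinning 84.6% and 76.5%.

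The level also depended on the depth of the cell. Beta-gated cells under 10000 UMIs made up 14.1% of the virgin and 22.2% of the multipara gate and read 70.3 CPM (54.3 to 89.6) and 424 CPM (385 to 465). Without cells holding C1qb or C1qc the same depth read 28.3 CPM (18.5 to 41.5) and 40.8 CPM (29.2 to 55.6). In these cells without C1qb or C1qc, the libraries overlapped below 20000 UMIs and stood apart above it. From 20000 to 40000 UMIs, where most beta cells lay, C1qa was 34.0 CPM (32.1 to 36.0) in the virgin and 60.1 CPM (57.2 to 63.2) in the multipara library. At 40000 UMIs or more it was 45.4 CPM (42.0 to 49.1) and 76.2 CPM (72.2 to 80.5).

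**Figure D4:**
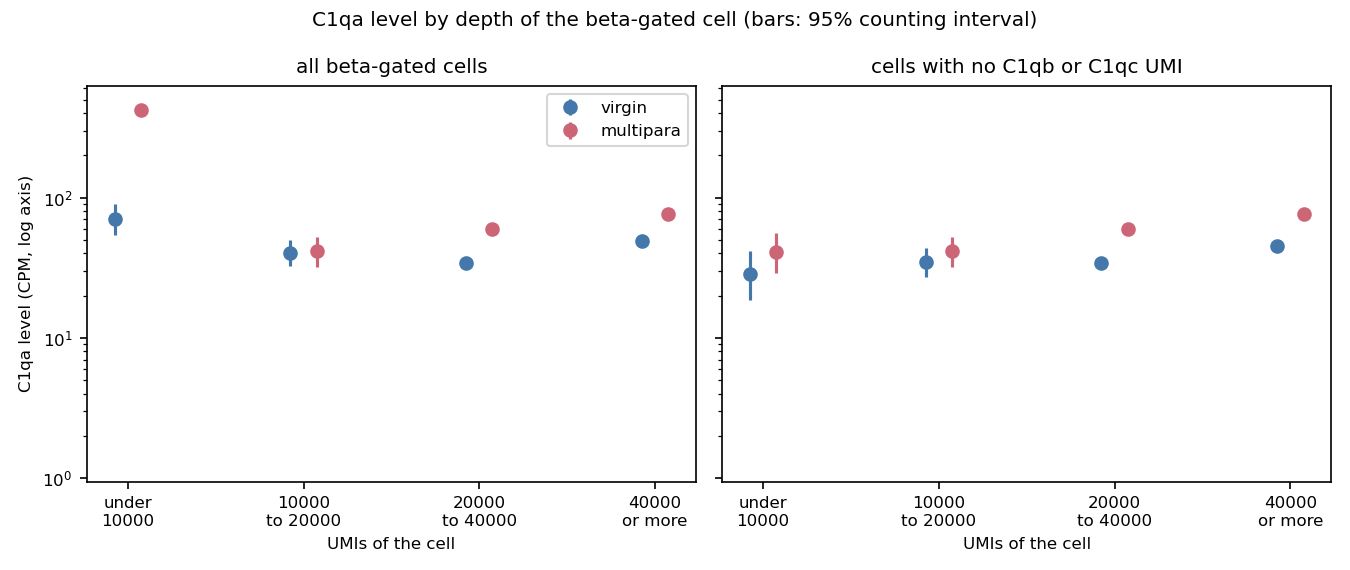
C1qa level in CPM (log axis) in beta-gated cells by the depth of the cell, for all cells (left) and cells with no C1qb or C1qc UMI (right), with 95% counting intervals. The multipara value of 424 CPM under 10000 UMIs drops to 40.8 once cells with C1qb or C1qc are left out, while above 20000 UMIs both panels show the multipara library higher.

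Beta cells were also split by genes that mark multipara beta cells, at 5000 UMIs per cell and without cells holding C1qb or C1qc. Multipara cells with at least 1 UMI of the stress response gene Nupr1 held 44.99 CPM of C1qa (37.99 to 52.9), below the 73.0 CPM (64.3 to 82.5) of those without, whereas virgin cells held 29.2 CPM (21.8 to 38.4) and 36.9 CPM (32.4 to 41.9), with overlapping intervals. Multipara cells with the flavin monooxygenase gene Fmo1 held 79.8 CPM (67.4 to 93.7) and those without 52.0 CPM (45.8 to 58.8), and in the virgin library the values were 37.0 CPM (24.0 to 54.7) and 35.1 CPM (31.04 to 39.6). Correlations were taken across all thinned beta cells (1656 virgin, 1387 multipara), those with C1qb or C1qc included. The 5 genes whose counts went most with C1qa, over 1186 genes, were Gng12, Cst3, Fh1, Rpl18 and Socs3. Their Pearson correlations were 0.04 to 0.12, too weak in such sparse counts to be a finding. C1qb and C1qc are under the 50 CPM needed to enter that ranking. They gave 0.13 and 0.14 in the virgin library and 0.38 and 0.38 in the multipara library. The multipara values rest on the 5 thinned cells with a C1qb UMI and the 6 with a C1qc UMI, and the virgin ones on 3 and 4.

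C3, the component that every complement pathway converges on, was highest in fibroblasts, followed by macrophages, and was low in beta cells. Fibroblast-gated cells held 4251 CPM (4057 to 4451) in the virgin library, in 33 of 58 cells, and 1541 CPM in the multipara library, where 2 of only 6 cells carried its 36 UMIs. C3 in beta-gated cells stood at 2.53 CPM (2.12 to 3.00) and 6.98 CPM (6.24 to 7.78), a log2 ratio of 1.46 (1.17 to 1.77). A C3 UMI was present in 4.72% of virgin cells (87 of 1842) and 14.0% of multipara cells (236 of 1688), and no multipara beta-gated cell held more than 4 UMIs of it. After thinning the shares were 0.845% (0.463 to 1.41) and 2.96% (2.13 to 3.99).

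Few beta-gated cells carried a fibroblast marker UMI, with or without C3. Of the 236 multipara beta-gated cells with C3, 0 had a UMI of any of the 6 fibroblast markers, and of the 87 virgin cells 2 had one. Among beta-gated cells without C3, 2.34% of virgin and 1.24% of multipara cells had one. The part of fibroblast RNA in the C3 values was not tested. Without marker-bearing cells the levels were 2.05 CPM (1.67 to 2.48) and 7.02 CPM (6.28 to 7.82), and the ratio was 1.78 (1.46 to 2.11), since 1 virgin cell had held 27 of the C3 UMIs. The other endocrine types gave nearly none. Delta cells had 0 UMIs in both libraries, with upper limits of 1.40 CPM (virgin) and 1.55 CPM (multipara), PP cells had 0 and 1, and multipara alpha cells had 1. Virgin alpha cells read 13.4 CPM, but 217 of their 222 UMIs sat in 1 cell and the level was 0.302 CPM without it. Endothelial cells had 0 in both libraries. Macrophage-gated cells held 368 CPM in the virgin and 39.2 CPM in the multipara library, from 9 and 4 cells, so this difference rests on few cells. The 41 thinned multipara beta cells with C3 held 180 CPM of C1qa (127 to 249) and those without C3 69.2 CPM (63.1 to 75.8). This gap closed to overlapping intervals without cells holding C1qb or C1qc, at 76.9 CPM (43.1 to 127) in 39 cells against 59.1 CPM (53.3 to 65.2).

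C4b, the C4 gene of the classical pathway, was also a fibroblast gene, at 891 CPM (804 to 985) in the virgin library and 128 CPM, from 3 UMIs in 1 cell, in the multipara library. Beta cells held 28 and 9 UMIs, alpha cells 39 and 4, delta cells 2 and 1, and PP cells 1 and 0. In virgin alpha cells 26 of the 39 sat in 1 cell, and the C4b level fell from 2.35 to 0.786 CPM without it. Fibroblast marker UMIs in beta-gated cells numbered 74 (virgin) and 41 (multipara) and those in alpha-gated cells 521 and 78, so C4b and these markers were both lower in multipara endocrine cells. The part of fibroblast RNA in the C4b values was not tested. Cfb was read only in virgin fibroblasts to any extent, at 42.3 CPM (25.1 to 66.9), from 18 UMIs in 14 of 58 cells. In each of the other named gates it had 4 UMIs or fewer.

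Serping1, the inhibitor that stops C1r and C1s and so the first step after C1q, was lower in multipara beta, alpha and delta cells, the 3 types in which C1qa was higher. Fibroblasts were highest, with 1923 CPM (1794 to 2060) in the virgin and 2312 CPM (1737 to 3017) in the multipara library. The multipara value came from 54 UMIs in 5 of 6 cells, 30 of them in 1 cell. Pericytes followed with 637 CPM (534 to 755) and 486 CPM (391 to 596), a log2 ratio of −0.39 (−0.79 to 0.00124). Delta cells held 99.8 CPM (88.1 to 113) and 60.5 CPM (51.0 to 71.2), a ratio of −0.72 (−1.03 to −0.42). Alpha cells held 64.1 CPM (60.3 to 68.1) and 44.2 CPM (40.3 to 48.3), a ratio of −0.54 (−0.69 to −0.38). Beta cells were far lower, with 7.25 CPM (6.53 to 8.02) and 3.04 CPM (2.56 to 3.58), a ratio of −1.25 (−1.54 to −0.97). PP cells held 14.4 and 10.2 CPM, with a ratio of −0.50 whose interval, −1.40 to 0.38, included 0. The delta, alpha and beta levels were lower in the multipara library in all 11 alternatives run on ratios, 3 of them added after seeing the data. In thinned cells the share with Serping1 was 40.0% against 26.3% in delta, 26.6% against 20.2% in alpha and 3.86% (2.99 to 4.91) against 2.24% (1.52 to 3.16) in beta cells, the last with overlapping intervals. With each cell weighted equally the beta ratio was −0.53, and in thinned cells −0.64. Summed fibroblast markers, virgin then multipara, were 1.42 and 0.878 CPM in beta, 31.4 and 7.15 CPM in alpha and 3 and 0 UMIs in delta cells, and pericyte markers were 0.997 and 7.64 CPM in beta, 1.81 and 1.93 CPM in alpha and 5 and 2 UMIs in delta cells. Their part in the Serping1 values was not tested. Endothelial cells stood at 16.3 and 17.2 CPM and macrophages had 1 and 0 UMIs.

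**Figure D5:**
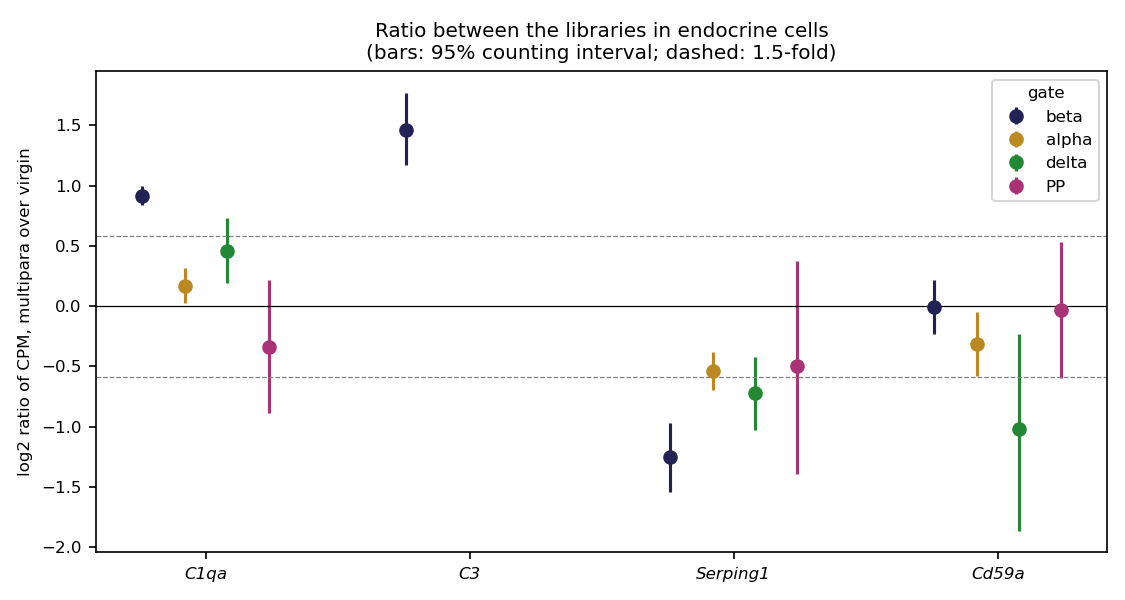
Log2 ratio of CPM, multipara over virgin, for C1qa, C3, Serping1 and Cd59a in the 4 endocrine gates, with 95% counting intervals and dashed lines at 1.5-fold. C1qa and C3 in beta cells lie above the upper line and Serping1 in beta and delta cells and Cd59a in delta cells below the lower one; ratios from under 30 UMIs and C3 in alpha cells, where 1 virgin cell held 217 UMIs, are not drawn.

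Cd59a, the regulator that keeps the terminal pore from forming on the cell's own surface, was spread over endocrine and endothelial cells. It was lower in multipara delta cells and, less clearly, in alpha cells. Its ratios were near 0 in beta, PP and endothelial cells. Schwann-gated cells had the highest level, 620 CPM (389 to 939) in 8 virgin cells and 596 CPM (257 to 1174) in 3 multipara cells, with a UMI in each of the 8 and 3 cells. Endothelial cells held 30.6 and 31.7 CPM, a log2 ratio of 0.05 (−0.57 to 0.68), and PP cells 28.2 and 27.6 CPM, a ratio of −0.03 (−0.60 to 0.54). Alpha cells held 20.7 CPM (18.6 to 23.0) and 16.7 CPM (14.4 to 19.3), a ratio of −0.31 (−0.58 to −0.05). Delta cells held 17.1 and 8.40 CPM, from 45 and 20 UMIs, a ratio of −1.02 (−1.86 to −0.23). In thinned cells the intervals of the libraries overlapped in both types. They were 16.4 to 24.7 CPM (virgin) and 10.7 to 19.8 CPM (multipara) in alpha cells. In delta cells they were 8.43 to 23.2 CPM and 4.42 to 16.9 CPM, from 17 and 10 UMIs. TMM scaling shifted all alpha ratios up by 0.098, which takes the upper limit of the alpha ratio, −0.05, past 0. Beta cells had the lowest endocrine share of all UMIs, hormones included, at 6.90 CPM (6.21 to 7.65) and 6.87 CPM (6.14 to 7.66). Their ratio was −0.01 (−0.23 to 0.21). In the multipara library the interval of delta cells (5.13 to 13.0 CPM) overlapped that of beta cells. Macrophages and T cells had no Cd59a UMI.

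C1qb and C1qc in beta-gated cells read 1.84 (1.54 to 2.14) and 1.61 (1.18 to 2.06) on the log2 scale, but both sides rested on few cells. Of the multipara C1qb and C1qc UMIs, 530 sat in cells under 10000 UMIs. Of the virgin ones, 55 sat in such cells and 88 in cells of 40000 UMIs or more, 86 of them in 1 cell. Without beta-gated cells under 10000 UMIs the ratios turned to −2.24 and −1.80.

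To set the members against the whole transcriptome, genes with at least 50 UMIs over both libraries were counted as past 1.5-fold in either direction. In beta-gated cells 5 of the 6 members with that many UMIs were past it (C1qa, C1qb, C1qc and C3 higher, Serping1 lower, Cd59a not), beside 8.02% of 12002 genes. The C1qb and C1qc ratios rested on few cells and turned negative without beta-gated cells under 10000 UMIs. The members were chosen with beta cell ratios known, so the count only describes them. In alpha cells 1 of 4 members was past it (C3, through 1 cell) beside 5.3% of genes, in delta cells 2 of 3 (Serping1 and Cd59a, both lower) beside 6.42%, and in PP cells 0 of 2 beside 7.45%. In endothelial cells 2 of 3 were past it, both through 1 virgin cell, beside 7.05%. Among pericytes it was 0 of 1 beside 11.3%, and among macrophages 1 of 4 (C3) beside 13.2%. No member had 50 UMIs in T cells, where 23.9% of genes were past the limit. The genes past the limit in beta cells were 393 higher and 570 lower, and 461 and 456 under TMM scaling. TMM and median-of-ratios scaling shifted ratios by 0.07 in beta cells. They shifted PP cells by 0.11 and 0.14, macrophages by 0.21 each and T cells by −0.21 and −0.16.

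A wider list of 54 complement genes, of which 53 were in the matrices and 47 detected, was read in the same way. In beta-gated cells 16 of them had 50 UMIs, and those past 1.5-fold were the 5 members named. The median log2 ratio of the 16 was 0.27, beside −0.08 over all genes. The list holds the members, and among them C1qb and C1qc, whose ratios rested on few cells. In alpha cells 1 of 13 was past it and the median was −0.07 (−0.10 over all genes), in delta cells 2 of 8 (−0.06 and −0.08), in PP cells 0 of 7 (−0.09 and −0.09), in endothelial cells 3 of 8 (−0.19 and −0.04), in pericytes 1 of 5 (−0.39 and −0.02) and in macrophages 3 of 13 (−0.06 and −0.08). In T cells it was 1 of 4 (0.49 and 0.05).

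Several other genes of the list were highest in fibroblasts. C1s1 and C1ra, the proteases that C1q activates, held 821 and 473 CPM in virgin fibroblasts, beside 1439 CPM of vitronectin (Vtn). The collectins Colec12 and Colec11, the lectin pathway protease Masp1 and the protease C2, which joins C4 in the C3 convertase, were also highest there, at 209, 165, 25.9 and 209 CPM in the virgin library. In beta-gated cells C1s1 had 10 and 11 UMIs, and C1ra 10 and 3, so C1s1 stood at 0.19 and 0.24 CPM beside 39.1 and 73.7 CPM of C1qa.

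Among terminal genes, C8b, a chain of the pore, was highest in alpha cells, at 150 CPM in the virgin and 123 CPM in the multipara library, with a log2 ratio of −0.28 (−0.38 to −0.18). It was present in 868 virgin and 516 multipara alpha cells. Delta and PP cells held 31.9 and 41.5 CPM of it in the virgin library and beta cells 9.20 CPM, with a beta ratio of 0.01 (−0.18 to 0.20). The other terminal genes were low. C8g had 132 and 167 UMIs in beta cells, C6 14 and 17 in beta cells and 8 in virgin macrophages, Hc and C9 at most 1 UMI in any gate, C7 3 UMIs in virgin fibroblasts, and C8a none.

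Clusterin (Clu), which binds the soluble pore, was at 577 and 574 CPM in delta cells, the highest endocrine type, and at 2123 CPM in virgin fibroblasts. It stood at 28.5 and 22.4 CPM in beta cells, a ratio of −0.35 (−0.47 to −0.24). The membrane regulator Cr1l was highest in endothelial cells, at 167 and 157 CPM, and beta cells held 23.7 and 20.7 CPM of it, a ratio of −0.19 (−0.32 to −0.07). Cd55 was highest in B cells, at 80.0 and 69.8 CPM. Of receptors, Cd93 marked endothelial cells at 697 and 680 CPM, C3ar1, Itgax and C5ar1 were highest in macrophages at 242, 120 and 106 CPM in the virgin library, and Itgb2 was highest in T cells at 123 CPM. C1qbp, a mitochondrial protein that can bind C1q, was at 160 CPM in virgin B cells and 104 CPM in virgin T cells. Properdin (Cfp) stood at 256 and 45.4 CPM in macrophages and at 79.0 and 128 CPM in the few dendritic-gated cells, from 11 and 4 UMIs. Calr, an endoplasmic reticulum chaperone that also acts as a C1q receptor at the cell surface, was in every type and stood at 574 and 744 CPM in beta cells, a ratio of 0.37 (0.35 to 0.39), within 1.5-fold.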

How the data were processed

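Values were the UMI counts deposited by the authors for each gene and barcode, unnormalized, from Cell Ranger 3.1.0 (file headers and submitters' processing notes, which also name Seurat 3.0 and GRCm38). The smallest barcode held 500 UMIs. The multipara library carries the label MP. The study gives only a lower bound on the mice per group, and the labels give no number per library.

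The cell filter of the study was applied (over 200 and under 6000 genes, under 60000 UMIs, under 10% mitochondrial UMIs). Scrublet (scanpy 1.11.5) then removed 61 cells of 4391 in the virgin library (1.39%, expected 3.51%) and 44 of 3374 in the multipara library (1.30%, expected 2.70%), so doublets can remain. Cells with 2 or more hormones at 5% of UMIs (280 virgin, 229 multipara) and unnamed cells (83 and 53) entered no type. Types with at least 30 cells in both libraries (8 types) were compared. UMIs were summed over the cells of a gate and scaled to CPM. Levels carry exact Poisson 95% intervals, shares exact Clopper-Pearson intervals and log2 ratios exact conditional binomial intervals, all for counting error only. Of these, only the log2 ratio intervals were checked on simulated counts. The simulation drew summed counts of beta-gated cells, so it does not cover counts that sit in a few cells. A share of 0 is printed with the limit that 3 counts of the total allow, not the interval bound. Where a library had 0 UMIs of a gene, the ratio is a bound against 3 counts. Thinned cells were drawn to 5000 UMIs without replacement. Fibroblast, Schwann, dendritic and B cell gates, with under 30 cells in a library, have levels and no ratio.

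The members, gates, motif and gene lists were chosen with earlier results of these data known. Named genes were the 8 members, up to 20 genes of the complement list at 20 CPM or more in a gated type of both libraries, ranked by the lower library (1 of them is not reported here), the 5 genes most like C1qa over thinned beta cells, the 3 genes most like each member over types, and Nupr1 and Fmo1. C4a, C6, C7, C8a, C8g, C9, Hc and Gm20547 were named after their values or positions were seen. There were 11 alternatives fixed at the start and 3 added after seeing the data (endocrine cells with C1qb or C1qc UMIs, endocrine cells under 10000 UMIs, and the top cell of a gene, each left out). The 11 alternatives run on ratios are not the 11 fixed ones. They include the 3 added ones and leave out the fixed ones that change only the count of genes past the limit. TMM used edgeR 4.0.16 in R 4.3.3. Python 3.11.15, numpy 2.4.6, scipy 1.17.1, pandas 2.3.3 and matplotlib 3.10.9 were used.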

Additional observations from a re-analysis of the deposited data

Results flagged for a closer look

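The log2 ratio of C1qa in beta-gated cells, 0.92, had a counting interval that did not overlap that of alpha cells (0.17) or delta cells (0.46), while the alpha and delta intervals overlapped. Without cells holding C1qb or C1qc the beta ratio, 0.81 (0.73 to 0.89), overlapped that of delta cells, 0.47 (0.20 to 0.74), and under stricter gates they were 0.86 and 0.78. The C1qa ratio of −5.13 in endothelial-gated cells rests on 1 virgin cell with 63 of the 65 UMIs, as does the C1qb ratio of −5.33 there. The C1qb ratio of 1.84 in beta-gated cells rests on 27 multipara and 11 virgin cells that hold most of its UMIs. C3 went in opposite directions, at 1.46 in beta-gated cells, −7.19 in alpha cells and −3.23 in macrophages. The alpha value comes from 1 virgin cell with 217 UMIs, and the macrophage value from 9 virgin and 4 multipara cells, with 132 and 25 UMIs. None of these differences between types was tested, since each group was a single library.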

How the results depend on the processing

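The C1qa ratio in beta-gated cells (0.92) was positive in all 11 alternatives run on ratios, 3 of them added after seeing the data. It was 0.82 without endocrine cells holding a macrophage marker UMI, 0.81 without those holding C1qb or C1qc, 0.77 without those under 10000 UMIs, 1.69 with each cell weighted equally and 1.02 in thinned cells. C1qb and C1qc UMIs per 100 of C1qa in beta-gated cells were 6.65 and 7.56 (virgin and multipara) under stricter gates, 0.869 and 2.09 without cells holding a macrophage marker and 6.49 and 0.902 without cells under 10000 UMIs, and 25.4 in thinned multipara cells. The share of beta-gated cells with C1qa was 42.3% and 36.1% without the cell filter, 60.6% in multipara cells under stricter gates, 53.7% and 69.3% without cells under 10000 UMIs and 15.4% and 23.5% in thinned cells. The number of genes past 1.5-fold in beta-gated cells was 963, and 2338 with at least 10 UMIs, 5667 with no limit on low counts and 400 at a limit of 2-fold. The ratios of C1qb and C1qc in beta-gated cells turned to −2.24 and −1.80 without cells under 10000 UMIs. Over all 23 member ratios and their alternatives, 180 values stayed within the counting interval of the reported value, 32 moved beyond it in the same direction or without a called direction and 2 turned, and over 38 levels 97 stayed and 17 moved. No paired analysis was possible because each group is 1 library. The main limits are the single library per group, the number of mice per library, which the labels do not give, the 6 multipara fibroblasts, and the small beta-gated cells with macrophage genes.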

Other observations

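Cells that no gate named also carried complement genes. The 83 unnamed virgin cells held 323 C3 UMIs in 5 cells, 122 Serping1, 59 C4b, 56 C1qa and 3 Cfb UMIs, beside 430 UMIs of the fibroblast markers. The 53 unnamed multipara cells held 0 C3 and 13 C1qa UMIs and no fibroblast marker UMI. The 280 virgin and 229 multipara cells with several hormones read 53.9 CPM (47.8 to 60.6) and 74.7 CPM (66.4 to 83.8) of C1qa, with 5 and 3 C1qb and C1qc UMIs.

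Over the 8 compared types and 2 libraries (16 points that share depth and totals within a library), the genes whose levels went most with a member were Chka, Pla2g2d and Pkib for C1qa, with Pearson correlations of 0.95, 0.92 and 0.90. For C1qb they were Ccl3, Ms4a7 and C1qc (0.99, 0.98 and 0.98), and for C1qc Ms4a7, Il1b and Tnip3 (0.998, 0.995 and 0.992). For C3 they were Slamf8, Spic and Clec4a1 (0.86, 0.85 and 0.85), for C4b Fxyd2, Cd209b and Marco (0.78, 0.73 and 0.73) and for Cfb Cd5l, Marco and Cd209b (each 0.96). The 8 types leave out fibroblasts, where C3, C4b, Cfb and Serping1 were highest in the virgin library. In virgin macrophages Cfb had 4 UMIs in 1 cell and C4b had 8 in 3 cells, and multipara macrophages had 0 of both. The Cfb and C4b correlations thus rest on few UMIs. For Cd59a they were Tox3, Rflna and Ripply3 (0.92, 0.88 and 0.88), and for Serping1 Lpp, Arhgef25 and Rbms3 (0.96 each). Ms4a7 is also a gate marker of macrophages.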
